A study of Mus musculus with 15 samples.

Results

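Brain endothelial and blood-brain barrier gene expression was examined for 10 genes, Cldn5, Cdh5, Pecam1, Flt1, Kdr, Tek, Slco1a4, Abcb1a, Mfsd2a and Ly6c1, which were chosen by name among the 46078 genes of the count table. Each symbol matched 1 row, and all 10 genes had enough reads to be tested, with 271 to 2948 counts per library. The genes were followed library by library in the brains of anti-CD8a treated APP-PS1 mice, PBS-injected APP-PS1 mice and PBS-injected wild-type (WT) mice.

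Endothelial cells line the capillaries of the brain and form the blood-brain barrier together with pericytes and the end-feet of astrocytes. Tight junctions between these cells close the path between them, few vesicles cross them, and transporters in their membranes decide which solutes enter the brain and which are pumped back into the blood. Growth factors of the VEGF family and the angiopoietins act on receptors at their surface to control vessel growth, leakiness and stability.

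The treated group held 5 APP-PS1 mice injected with anti-CD8a antibody (clone 2.43), which binds a co-receptor of cytotoxic T cells, at 0.8 mg per injection. The APP-PS1 PBS group held 5 mice of the same line injected with 100 µL of PBS, and the WT group held 5 mice injected with 100 µL of PBS. All mice were 12 months old and received 10 injections over 4 weeks. APP-PS1 mice model the amyloid deposition of Alzheimer's disease: they express a chimeric amyloid precursor protein with the Swedish mutation (Mo/HuAPP695swe) together with the human presenilin 1 variant PS1-dE9. Both transgenes are driven by the prion protein promoter and directed to CNS neurons. Whether endothelial cells also expressed them was not measured. An isotype control antibody is named in the labels but was not analysed here, so the binding of CD8a and the injection of an antibody as such cannot be told apart in the treated group. Females and males numbered 2 and 3 in the treated group, 2 and 3 in the APP-PS1 PBS group and 4 and 1 in the WT group, by their labels. After perfusion, a brain region was dissected from 1 hemisphere of each mouse, and poly(A) RNA was sequenced. The sources used here do not name that region.

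Each library came from 1 mouse and held 17736524 to 36485809 counts, so that a floor of 3 counts was worth 0.0822 to 0.169 CPM (counts scaled to library size by the TMM method). Markers of neurons, astrocytes, oligodendrocytes, microglia and mural cells were above 0 in every group. App and Prnp, whose sequences the transgenes share in part, were 2.16-fold and 2.29-fold the WT level in APP-PS1 PBS mice. Ttr, an abundant choroid plexus transcript, exceeded 1000 CPM in treated replicate 1, in APP-PS1 PBS replicates 2 and 5 and in WT replicates 3 and 5, and lay at 20.7 to 107 CPM in the other 10 libraries. APP-PS1 PBS replicate 1, a male by its label, held 1922 CPM of Xist, which females express from the silenced X chromosome. Its Y-linked genes summed to 2.083 CPM, against 237 to 334.2 CPM in the other libraries labelled male, so its RNA reads as female. The main fit kept the label, and sex read from genes was an alternative. Cd8a itself was near the detection floor, at 0.0824 to 0.707 CPM in treated mice, 0.167 to 0.519 CPM in APP-PS1 PBS mice and 0.0866 to 0.366 CPM in WT mice.

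None of the 10 genes had an adjusted p below 0.05 for any of the 3 contrasts between groups, either in edgeR's quasi-likelihood test or in DESeq2. DESeq2 called 1.09%, 0.405% and 1.62% of the 33111 genes for which it gave a p value, in the order that follows. That set is larger than the one edgeR tested, so the shares of the 2 methods have unlike bases. Between APP-PS1 PBS and WT mice edgeR called 1.03% of the 18974 genes tested, and 0 of the 10 genes had an unadjusted p below 0.05 in edgeR (11.5% of all genes did). Between treated and APP-PS1 PBS mice edgeR called 0% of all genes, while DESeq2 called 134 genes. Here 4 of the 10 genes, Mfsd2a, Cldn5, Ly6c1 and Kdr, had an unadjusted p below 0.05 in edgeR (13.3% of all genes did). Between treated and WT mice edgeR called 1.94% of all genes, and 2 of the 10 genes, Mfsd2a and Flt1, had an unadjusted p below 0.05 (12.1% of all genes did). In each comparison the CPM ranges of the groups overlapped for all 10 genes. Ranges that did not overlap were rare among all genes tested as well. Their share was 2.89% between APP-PS1 PBS and WT mice, 1.8% between treated and APP-PS1 PBS mice and 3.04% between treated and WT mice. The 0 of 10 seen here lies near these shares.

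The 95% intervals bound the differences that these libraries leave room for. Over all 10 genes they ran from 0.752-fold to 1.34-fold between APP-PS1 PBS and WT mice, from 0.588-fold to 1.47-fold between treated and APP-PS1 PBS mice, and from 0.592-fold to 1.44-fold between treated and WT mice. The lower end of both ranges that involve treated mice belongs to Mfsd2a. Fitted log2 fold changes were positive for 8, 4 and 8 of the 10 genes in these 3 comparisons, with medians of 0.099, -0.027 and 0.099. Of all genes tested 46.9%, 54.1% and 48.9% were positive, with medians of -0.011, 0.015 and -0.0032. Any 2 of the comparisons share a group of mice. In bulk tissue, fewer endothelial cells and less RNA per endothelial cell cannot be told apart, and p values here measure the spread between mice.

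**Figure D1:**
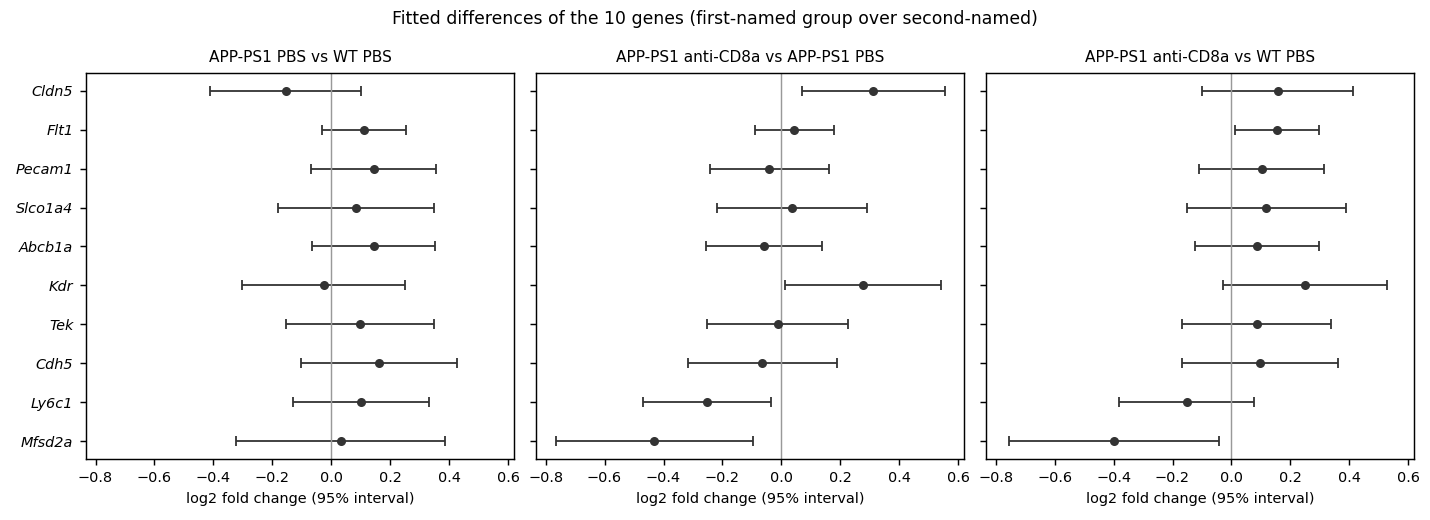
Fitted log2 fold changes of the 10 genes (points) with 95% intervals (bars) in edgeR's model of 15 libraries, with the group named first over the group named second in each panel. The intervals of Cldn5 and Kdr lie above 0 and those of Ly6c1 and Mfsd2a below 0 between treated and APP-PS1 PBS mice, before adjustment for the number of genes tested.

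Levels per length of transcript differed more among the 10 genes than any of them differed between groups. In RPKM, which is CPM per kilobase of GENCODE M21 exon, Cldn5 was highest with 14.3 ± 2.22 RPKM and Kdr lowest with 2.12 ± 0.372 RPKM (SD over 15 libraries). Between them lay Ly6c1 (13 ± 1.79 RPKM), Slco1a4 (11 ± 1.67 RPKM), Mfsd2a (9.05 ± 2.35 RPKM), Abcb1a (8.05 ± 0.864 RPKM), Flt1 (5.88 ± 0.459 RPKM), Pecam1 (4.3 ± 0.477 RPKM), Tek (3.94 ± 0.522 RPKM) and Cdh5 (3.62 ± 0.492 RPKM). Flt1 and Pecam1 were the neighbours in this order whose ranges over the 15 libraries did not overlap. Flt1 also exceeded Pecam1, Abcb1a exceeded Flt1 and Cdh5 exceeded Kdr in each of the 15 libraries, whereas every other neighbour pair was ordered in 10 or 11 of 15. The order within groups differed near the top: the highest mean was that of Cldn5 in treated mice (15.9 RPKM) and WT mice (14.3 RPKM), and that of Ly6c1 in APP-PS1 PBS mice (13.9 RPKM). Mfsd2a had rank 5 in treated mice with 7.19 RPKM, rank 4 in APP-PS1 PBS mice with 9.63 RPKM and rank 3 in WT mice with 10.3 RPKM. It was also the most variable of the 10 genes, with a coefficient of variation of 26% over all libraries, and Flt1 the least, with 7.81%.

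**Figure D2:**
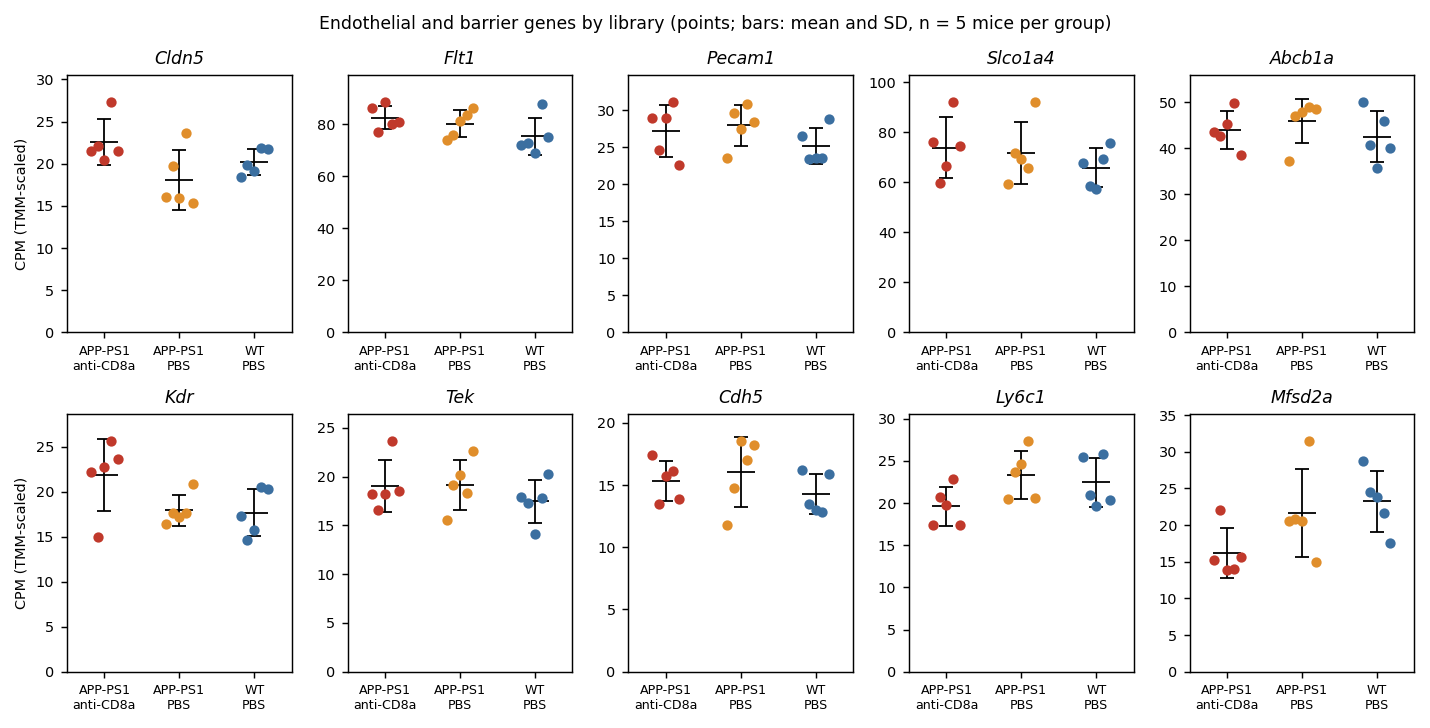
CPM of the 10 genes in each of the 15 libraries (points, 1 per mouse), by group, with group means and SDs (bars). The points of the 3 groups overlap for every gene, and Mfsd2a has 4 of 5 treated libraries between 13.9 and 15.7 CPM with the fifth at 22.1 CPM.

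Promoter sequences are shown for 3 genes on which the results turn: Slco1a4 and Tek, which varied together between mice, and Mfsd2a, most of whose correlations with the other genes were negative. They are RefSeq windows of the mouse build GRCm38.p6, from 250 bases before to 50 bases after the annotated start, written along the strand of the gene, and 8 of the 10 genes had such a window, 9 windows in all. The Slco1a4 window is chr6:141856171-141856470 on the minus strand, that of Tek is chr4:94739039-94739338 on the plus strand, and that of Mfsd2a is chr4:122961139-122961438 on the minus strand. Capitals mark matches, on either strand, to 2 motifs that do not overlap here: AGGAAG, the core of sites bound by ETS factors, which many endothelial genes carry, and TGTTCT, an arm of the site of the glucocorticoid receptor.
Slco1a4: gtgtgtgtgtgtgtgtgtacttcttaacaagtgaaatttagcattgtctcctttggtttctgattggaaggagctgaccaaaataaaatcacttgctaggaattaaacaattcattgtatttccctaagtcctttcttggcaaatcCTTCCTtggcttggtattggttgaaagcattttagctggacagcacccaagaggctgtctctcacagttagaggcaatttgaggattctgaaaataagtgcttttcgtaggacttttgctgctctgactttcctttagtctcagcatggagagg
Tek: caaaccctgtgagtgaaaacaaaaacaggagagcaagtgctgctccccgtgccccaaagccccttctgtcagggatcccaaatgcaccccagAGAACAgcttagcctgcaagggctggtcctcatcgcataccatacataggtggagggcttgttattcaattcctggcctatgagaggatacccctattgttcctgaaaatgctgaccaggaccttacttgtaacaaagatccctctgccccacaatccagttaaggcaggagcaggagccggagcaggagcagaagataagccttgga
Mfsd2a: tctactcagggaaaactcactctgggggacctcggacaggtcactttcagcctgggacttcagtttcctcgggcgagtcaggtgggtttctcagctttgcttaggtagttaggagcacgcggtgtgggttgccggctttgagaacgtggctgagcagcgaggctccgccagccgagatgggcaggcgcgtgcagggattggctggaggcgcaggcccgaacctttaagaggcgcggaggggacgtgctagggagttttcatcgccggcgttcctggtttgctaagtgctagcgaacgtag
The Slco1a4 window held 1 ETS core, on the opposite strand at -104 from the start, the Tek window held 1 match to TGTTCT, on the opposite strand at -158, and the Mfsd2a window held neither motif. AGGAAG occurred in 4 of the 9 windows, among them 2 matches each in the windows of Flt1 and Abcb1a, and in 35.4% of the 32851 promoter windows of the table. TGTTCT, a motif chosen after the values of Mfsd2a were seen, occurred in 2 of the 9 windows and in 19% of all windows. TATAAA, the core of the TATA box, was found in 2 of the 9 and in 13.6% of all. These matches describe letters, and binding was not measured.

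The first genes in order of role are those that hold endothelial cells together. Cldn5 (ENSMUSG00000041378, chromosome 16, 18776847 to 18778262, plus strand, GRCm38) encodes claudin-5, the main claudin of the tight junctions of brain endothelium. Its values, in order of replicates 1 to 5 here and below, were 21.5, 22.1, 20.5, 27.3 and 21.5 CPM in treated mice, 16, 19.7, 15.9, 23.6 and 15.3 CPM in APP-PS1 PBS mice and 18.4, 19.8, 19.1, 21.9 and 21.7 CPM in WT mice. All 5 treated libraries lay above the median of the APP-PS1 PBS libraries, but APP-PS1 PBS replicate 4 lay inside the treated range. Cldn5 averaged 22.6 ± 2.69 CPM in treated mice and 18.1 ± 3.53 CPM in APP-PS1 PBS mice (SD, n = 5 in either group), which is a log2 fold change of 0.31 (SE 0.11, edgeR unadjusted p = 0.015, adjusted p = 0.294). Against WT mice, at 20.2 ± 1.55 CPM, the log2 fold change was -0.16 (SE 0.12) in APP-PS1 PBS mice and 0.16 (SE 0.12) in treated mice. Single libraries weighed on these values in both directions. Without APP-PS1 PBS replicate 4 the log2 fold change of treated over APP-PS1 PBS mice was 0.45, with an adjusted p of 0.0964 in edgeR. That of APP-PS1 PBS over WT mice was then -0.35, with an adjusted p of 0.0949. Without treated replicate 4 the first of these was 0.23, its lowest among the alternatives. The second was -0.04 without the 5 libraries above 1000 CPM of Ttr.

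Cdh5 (ENSMUSG00000031871, chromosome 8, 104101625 to 104144511, plus strand) encodes VE-cadherin, the adhesion protein of endothelial adherens junctions. It was measured at 17.4, 13.5, 15.7, 16.1 and 13.9 CPM in treated mice, 11.8, 14.8, 18.5, 17 and 18.2 CPM in APP-PS1 PBS mice and 16.2, 13.5, 13, 12.8 and 15.9 CPM in WT mice. The APP-PS1 PBS libraries were the most spread, holding both the lowest and the highest value, and the other groups lay within that spread. Pecam1 (ENSMUSG00000020717, chromosome 11, 106654217 to 106750628, minus strand) encodes CD31, an adhesion molecule at endothelial cell contacts that platelets and leukocytes also carry. Its levels were 28.9, 24.6, 29, 31.1 and 22.6 CPM in treated mice, 23.6, 29.6, 27.5, 30.8 and 28.4 CPM in APP-PS1 PBS mice and 26.5, 23.4, 23.6, 23.6 and 28.8 CPM in WT mice. The largest fitted difference of either gene was the log2 fold change of 0.16 for Cdh5 in APP-PS1 PBS over WT mice (SE 0.12, edgeR adjusted p = 0.653), and the fitted change of Pecam1 between treated and APP-PS1 PBS mice, -0.04, took the other sign under some alternative settings.

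Flt1, Kdr and Tek are receptor tyrosine kinases of endothelium. Flt1 (ENSMUSG00000029648, chromosome 5, 147561604 to 147726011, minus strand) encodes VEGF receptor 1, which binds VEGF-A tightly, signals weakly and has a soluble form that keeps the ligand from other receptors. It was measured at 86.1, 77.2, 88.5, 80.2 and 81 CPM in treated mice, 73.9, 75.9, 81.4, 83.4 and 86.4 CPM in APP-PS1 PBS mice and 72.1, 72.7, 69.1, 87.7 and 75.2 CPM in WT mice. Apart from WT replicate 4, each WT library lay below all treated libraries. Flt1 averaged 82.6 ± 4.6 CPM in treated mice and 75.4 ± 7.24 CPM in WT mice, a log2 fold change of 0.15 (SE 0.07, edgeR unadjusted p = 0.035, adjusted p = 0.363). Without WT replicate 4 this log2 fold change was 0.20, the highest among the alternatives, and the smallest adjusted p over all of them was 0.118. The lowest was 0.10, without the 5 libraries above 1000 CPM of Ttr.

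Kdr (ENSMUSG00000062960, chromosome 5, 75932827 to 75978458, minus strand) encodes VEGF receptor 2, the main signalling receptor for VEGF-A in endothelium. Its values were 22.2, 15, 22.8, 25.6 and 23.7 CPM in treated mice, 16.4, 17.6, 17.2, 17.7 and 20.9 CPM in APP-PS1 PBS mice and 17.3, 14.6, 15.8, 20.5 and 20.3 CPM in WT mice. Apart from treated replicate 2, which was below every APP-PS1 PBS library, the treated libraries lay above all libraries of both PBS groups. Kdr averaged 21.8 ± 4.04 CPM in treated mice and 17.9 ± 1.71 CPM in APP-PS1 PBS mice, a log2 fold change of 0.28 (SE 0.12, edgeR unadjusted p = 0.0415, adjusted p = 0.36). Treated over WT mice, at 17.7 ± 2.61 CPM, gave 0.25 (SE 0.13, edgeR adjusted p = 0.47). With treated replicate 2 left out, these log2 fold changes were 0.39 and 0.40, their highest among the alternatives. Their lowest were 0.23, without treated replicate 4, and 0.18, with the 2 groups alone. The difference between the PBS groups, -0.03, changed sign among the alternative settings.

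Tek (ENSMUSG00000006386, chromosome 4, 94739289 to 94874976, plus strand) encodes TIE2, the receptor for angiopoietins. It was measured at 18.2, 16.6, 18.2, 23.6 and 18.5 CPM in treated mice, 15.5, 19.1, 20.2, 18.3 and 22.6 CPM in APP-PS1 PBS mice and 17.9, 17.3, 14.1, 17.8 and 20.3 CPM in WT mice. The 3 groups overlapped over most of their ranges. The fitted log2 fold changes were 0.10 in APP-PS1 PBS over WT mice (SE 0.12), -0.01 in treated over APP-PS1 PBS mice (SE 0.11) and 0.09 in treated over WT mice (SE 0.12), and the first and second took the other sign under some alternatives.

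Slco1a4, Abcb1a and Mfsd2a are transporters of the barrier. Slco1a4 (ENSMUSG00000030237, chromosome 6, 141805440 to 141856199, minus strand) encodes an organic anion transporter of the rodent blood-brain barrier. Its values were 76.1, 59.6, 66.7, 92.1 and 74.5 CPM in treated mice, 59.2, 71.9, 69.2, 65.9 and 92 CPM in APP-PS1 PBS mice and 67.9, 58.5, 57.3, 69.4 and 75.9 CPM in WT mice. Each APP-PS1 group had 1 library near 92 CPM, above every WT library, and its lowest library within the WT range. The fitted log2 fold changes were 0.08 in APP-PS1 PBS over WT mice (SE 0.12), 0.04 in treated over APP-PS1 PBS mice (SE 0.12) and 0.12 in treated over WT mice (SE 0.13), the first and second of which changed sign among the alternatives.

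Abcb1a (ENSMUSG00000040584, chromosome 5, 8660077 to 8748575, plus strand) encodes P-glycoprotein, the efflux pump that returns many drugs to the blood. It was measured at 43.6, 42.7, 45.3, 49.9 and 38.6 CPM in treated mice, 37.3, 46.9, 47.8, 48.9 and 48.6 CPM in APP-PS1 PBS mice and 50, 40.7, 35.7, 45.8 and 40.1 CPM in WT mice. In the APP-PS1 PBS group 4 libraries lay close together and replicate 1 well below them, and the group still overlapped both others. The largest fitted log2 fold change was 0.14 in APP-PS1 PBS over WT mice (SE 0.10, edgeR adjusted p = 0.601), and that of treated over WT mice, 0.09, was -0.01 without the 5 libraries above 1000 CPM of Ttr. Its near copy Abcb1b, with 7.24 to 10.5 CPM in treated mice, 6.78 to 8.78 CPM in APP-PS1 PBS mice and 5.54 to 7.93 CPM in WT mice, is similar in sequence. Reads that align to both may be missing from both counts, and how many was not measured. Abcb1b was higher in treated than in WT mice by a log2 fold change of 0.41 (SE 0.12, edgeR adjusted p = 0.134), which did not pass.

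Mfsd2a (ENSMUSG00000028655, chromosome 4, 122946850 to 122961188, minus strand) encodes the carrier that brings docosahexaenoic acid into the brain as a lysophospholipid and that keeps vesicle transport across brain endothelium low. Its values were 15.2, 22.1, 13.9, 14 and 15.7 CPM in treated mice, 20.6, 20.8, 20.5, 31.4 and 15 CPM in APP-PS1 PBS mice and 28.7, 24.5, 23.8, 21.6 and 17.5 CPM in WT mice. Treated replicates 1, 3, 4 and 5 lay below every WT library, and replicate 2 lay among the WT libraries. APP-PS1 PBS replicate 5 was as low as the treated mice. Mfsd2a averaged 16.2 ± 3.37 CPM in treated mice and 21.7 ± 5.97 CPM in APP-PS1 PBS mice, a log2 fold change of -0.43 (SE 0.16, edgeR unadjusted p = 0.0149, adjusted p = 0.294). Against WT mice, at 23.2 ± 4.1 CPM, the value in treated mice was -0.40 (SE 0.17, edgeR unadjusted p = 0.03, adjusted p = 0.341).

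These 2 differences of Mfsd2a were the largest among the 10 genes, and their intervals, 0.588-fold to 0.935-fold against APP-PS1 PBS mice and 0.592-fold to 0.97-fold against WT mice, reached close to no change. Exact permutation of the log2 CPM over all 252 splits of 5 against 5 libraries gave a difference of -0.40 against APP-PS1 PBS mice (two-sided p = 0.127) and of -0.52 against WT mice (two-sided p = 0.0238, adjusted p = 0.355 over all genes), where the smallest p possible is 0.00794. Unlike the fitted values, these differences had no term for sex, which was uneven between treated and WT mice. Over the alternatives the log2 fold change ran from -0.62 to -0.29 against APP-PS1 PBS mice and from -0.54 to -0.27 against WT mice, with smallest adjusted p values of 0.14 and 0.181. Between APP-PS1 PBS and WT mice the fitted value was 0.03 (SE 0.17) while the mean CPM was lower in APP-PS1 PBS mice, and its sign changed among the alternatives.

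Ly6c1 (ENSMUSG00000079018, chromosome 15, 75044018 to 75048830, minus strand) encodes a surface protein that mouse brain endothelium carries, as do some monocytes and T cells. It was measured at 17.4, 20.7, 19.8, 22.8 and 17.4 CPM in treated mice, 20.5, 23.7, 24.6, 27.3 and 20.6 CPM in APP-PS1 PBS mice and 25.4, 21, 19.6, 25.8 and 20.4 CPM in WT mice. All 5 treated libraries lay below the median of the APP-PS1 PBS libraries. Ly6c1 averaged 19.6 ± 2.31 CPM in treated mice and 23.3 ± 2.88 CPM in APP-PS1 PBS mice, a log2 fold change of -0.25 (SE 0.10, edgeR unadjusted p = 0.0255, adjusted p = 0.329). Ly6c2, a near copy that marks monocytes, averaged 1.16 ± 0.189 CPM in treated mice and 0.918 ± 0.155 CPM in APP-PS1 PBS mice. Reads that align to both copies may be missing from both counts, so the levels of both are uncertain. The 10 markers of blood leukocytes together summed to 2.94 to 4.34 CPM in treated mice, 1.75 to 6.07 CPM in APP-PS1 PBS mice and 2.48 to 3.63 CPM in WT mice. The part of blood leukocytes in the Ly6c1 counts was not tested.

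Other genes linked to endothelium and to the vessel wall were read from lists in the same fit. Many of them are not confined to these cells, and bulk tissue does not separate the sources. List counts and medians are therefore no readout of endothelium alone. Genes of a list also share libraries and tissue content, so their estimates are not independent. Between APP-PS1 PBS and WT mice, the vascular genes that passed were Ch25h and Atp13a5. Ch25h, which makes 25-hydroxycholesterol and is listed with endothelial activation genes, had 0.848 to 1.65 CPM in APP-PS1 PBS mice against 0.363 to 0.537 CPM in WT mice, a log2 fold change of 1.50 (SE 0.30, edgeR adjusted p = 0.0195). The groups did not overlap. Microglia also make Ch25h, and of the 8 markers of microglia 6 rose in the same comparison, with summed levels of 504 to 670 CPM in APP-PS1 PBS mice and 330 to 388 CPM in WT mice. No microglia marker was at 0, and their part in the rise of Ch25h was not tested. Its call was lost in 5 of 23 alternatives. With no sex covariate the log2 fold change was 1.24 (edgeR adjusted p = 0.154), and without the 5 Ttr-rich libraries it was 1.89 (0.102). The call was also lost without APP-PS1 PBS replicate 4 (0.0701), without WT replicate 2 (0.0514) and without WT replicate 4 (0.0508).

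Atp13a5, a transporter gene of brain pericytes, had 18.4 to 25.2 CPM in APP-PS1 PBS mice against 16.4 to 19.2 CPM in WT mice. Its log2 fold change was 0.35 (SE 0.08, edgeR adjusted p = 0.0386), the groups overlapped, and the call held in 9 of 23 alternatives. Leaving out any of 10 libraries ended it (adjusted p of 0.0502 to 0.148 in edgeR), as did removal of the 5 Ttr-rich libraries (0.833). No other mural cell marker passed, although 13 of the 14 had a positive estimate (median log2 fold change 0.13). Among 25 genes of endothelial identity, 19 estimates were positive (median 0.08), as were 46.9% of those of all genes tested. In edgeR 0 of them passed, and 2 had an unadjusted p below 0.05 (11.5% of all genes did). The genes of smallest p were Fli1, an ETS transcription factor (0.31), Adgrl4, an adhesion receptor (0.21), Cd34 (0.15) and Egfl7 (-0.15). Junction genes had 5 positive estimates of 14, barrier transporters 11 of 17, genes of VEGF and angiopoietin signalling 9 of 14, genes of endothelial Wnt signalling 10 of 17 and genes of caveolae and fenestration 5 of 7. Angpt1, the ligand that activates Tek, came closest to passing among the ligands, with 14 ± 1.16 CPM in APP-PS1 PBS mice and 9.49 ± 1.48 CPM in WT mice, a log2 fold change of 0.53 (SE 0.12, edgeR adjusted p = 0.0582). Slco2b1, described below, had 0.46 (SE 0.12, edgeR adjusted p = 0.083). DESeq2 called Angpt1, Slco2b1 and Cav2 besides Ch25h and Atp13a5.

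Between treated and APP-PS1 PBS mice no gene of the vascular lists passed in edgeR, and DESeq2 called Slc2a1 and Egfl7. The smallest p values were those of Esam (log2 fold change 0.23) among junction genes, of Slc2a1 (-0.29) and Abcg2 (-0.28) among barrier transporters, of Egfl7 (0.29), Notch1 (0.25) and Robo4 (0.26) among genes of endothelial identity, of Apcdd1 (0.32) among genes of endothelial Wnt signalling, of Cavin2 (-0.38) and Cav2 (-0.22) among genes of caveolae, and of Pdgfrb (0.23) among mural markers, with adjusted p values of 0.223 to 0.268 in edgeR. Slc2a1 encodes the glucose transporter GLUT1, Abcg2 an efflux pump, Apcdd1 an inhibitor of Wnt signalling, and Cavin2 and Cav2 structural proteins of caveolae. Angpt1 had -0.34 and its antagonist Angpt2 -0.70 (adjusted p values of 0.282 and 0.355). Genes of endothelial identity had 15 positive estimates of 25 (54.1% of all genes tested were positive), and their median was 0.03 on the log2 scale.

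Fibroblast markers had a negative estimate for 9 of 9 genes in the same comparison, where 54.1% of all genes tested had a positive one. Their median was -1.01 on the log2 scale, and none passed in edgeR (4 had an unadjusted p below 0.05, as did 13.3% of all genes). Dcn, which encodes the matrix proteoglycan decorin, had the smallest p of that list (-1.10, edgeR adjusted p = 0.223). Their summed level was 70.1 to 315 CPM in treated mice, 119 to 433 CPM in APP-PS1 PBS mice and 143 to 456 CPM in WT mice, with no marker at 0. Choroid plexus markers had a negative estimate for 14 of 14 genes (median -1.87, 0 passed), with sums of 277 to 3297 CPM in treated mice, 313 to 7289 CPM in APP-PS1 PBS mice and 265 to 11162 CPM in WT mice. Mfsd2a and Ly6c1 also had negative estimates in this comparison. Between APP-PS1 PBS and WT mice, 13 of 14 choroid plexus estimates were negative (median -0.47) and 9 of 9 fibroblast estimates positive (median 0.37). The estimates of Mfsd2a (0.03) and Ly6c1 (0.10) were positive there. The part of these tissues in the values of both genes was not tested. Without the 5 libraries above 1000 CPM of Ttr, the log2 fold change of Mfsd2a between treated and APP-PS1 PBS mice was -0.62, the lowest of the alternatives.

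Between treated and WT mice, Ch25h and Slco2b1 passed. Ch25h had 0.768 to 2.69 CPM in treated mice against 0.363 to 0.537 CPM in WT mice, a log2 fold change of 1.71 (SE 0.29, edgeR adjusted p = 0.00384). Slco2b1, an organic anion transporter that barrier endothelium and microglia express, had 25.2 to 43.3 CPM in treated mice against 18.1 to 21.9 CPM in WT mice, a log2 fold change of 0.64 (SE 0.11, edgeR adjusted p = 0.00558). Treated replicate 3 held the highest value of both genes, and neither gene's groups overlapped. Both calls held in all 23 alternatives, leaving out each library included, with adjusted p values of at most 0.0362. Of the 8 microglia markers 7 rose in this comparison, with summed levels of 484 to 935 CPM in treated mice and 330 to 388 CPM in WT mice, and their part in these changes was not tested.

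The remaining vascular lists had no call between treated and WT mice in edgeR. Endothelial identity genes had 21 positive estimates of 25, with a median log2 fold change of 0.13. All genes tested had 48.9% positive estimates and a median of -0.0032. Fli1 (0.33, edgeR adjusted p = 0.0995), Notch1 (0.26) and Sox7 (0.49) had the smallest p values of that list. Ptprb, the phosphatase that restrains Tek, had 0.28 (adjusted p = 0.318), and mural markers had 8 positive estimates of 14 with 0 calls, led by Pdgfrb, the PDGF receptor of pericytes (0.23, adjusted p = 0.114).

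**Figure D3:**
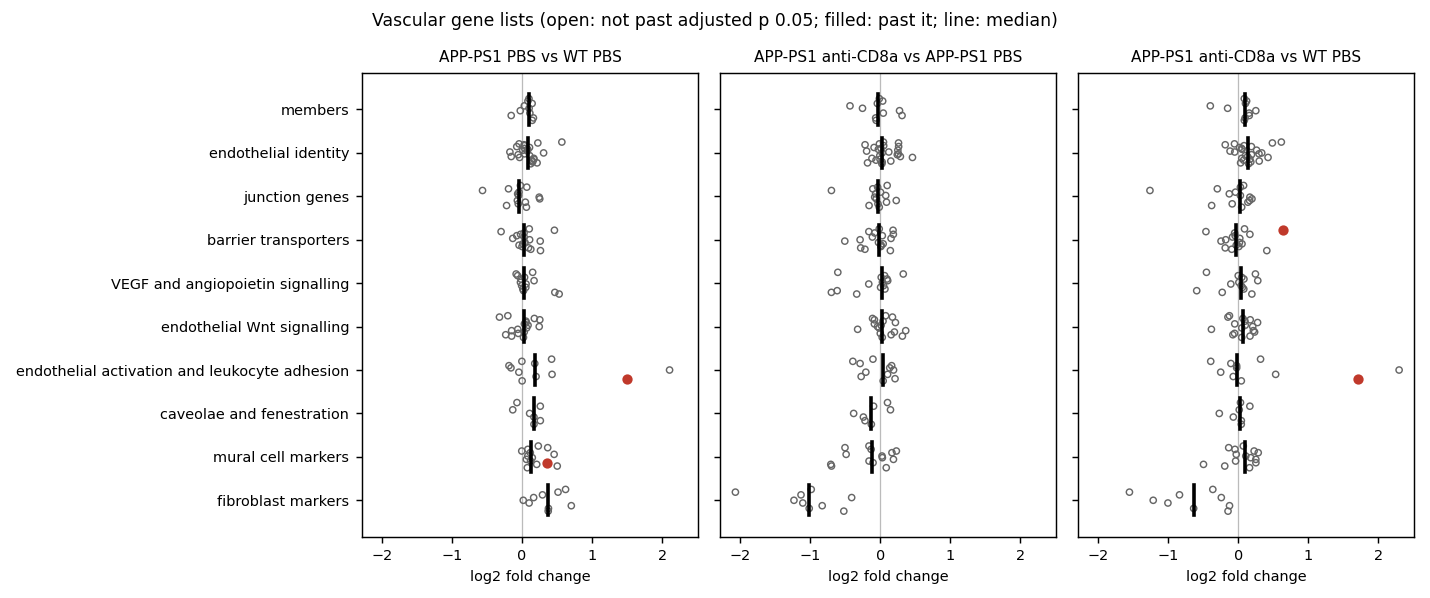
Log2 fold changes of the genes of 10 vascular lists (points) and their medians (lines) in the 3 comparisons, where "members" are the 10 genes described here and filled points passed an adjusted p of 0.05 in edgeR. Filled points are Ch25h and Atp13a5 between APP-PS1 PBS and WT mice, and Ch25h and Slco2b1 between treated and WT mice.

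Most pairs of the 10 genes were positively correlated between mice of the same group, though few pairs passed the test. After the group mean was taken from each gene's log2 CPM, 39 of the 45 pairs of genes had a positive Pearson correlation over the 15 libraries, with a median r of 0.390. With 100000 permutations within groups, 4 pairs passed an adjusted p of 0.05 over the 45 pairs. Points of such a pair share a library, its scaling and its tissue content. The same counts were not made for pairs of other genes, so they cannot be read as a trait of these 10 genes.

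Slco1a4 and Tek formed the closest pair (r = 0.897, Spearman's rho = 0.804, permutation p adjusted over 45 pairs = 0.00225 and 0.00787). With the 2 libraries farthest from the median of Slco1a4 left out, r was 0.881. In both genes, treated replicate 4, APP-PS1 PBS replicate 5 and WT replicate 5 were the highest library of their group. Slco1a4 and Kdr followed (r = 0.825, rho = 0.882, adjusted permutation p = 0.00562 and 0.00495, r without the 2 farthest libraries 0.807). Abcb1a and Ly6c1 reached r = 0.772 and rho = 0.779 (adjusted permutation p = 0.0312 and 0.0318), and 0.725 without the 2 farthest libraries. Pecam1 and Cdh5 reached r = 0.745 (adjusted permutation p = 0.0312), but their rho of 0.607 did not pass (adjusted permutation p = 0.11), and r was 0.622 without the 2 farthest libraries. The number of pairs that passed was 2 without the 5 libraries above 1000 CPM of Ttr. It was also 2 when treated replicate 5, APP-PS1 PBS replicate 1, or WT replicate 1, 2 or 3 was left out, and 7 without WT replicate 5.

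**Figure D4:**
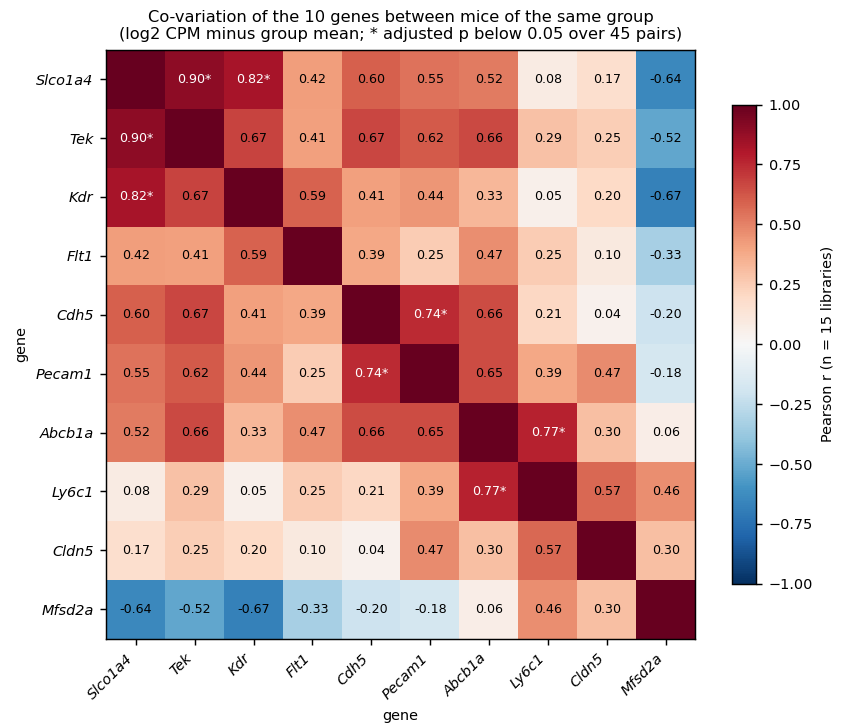
Pearson correlation of each pair of the 10 genes over 15 libraries, on log2 CPM minus the group mean, with asterisks where the permutation p adjusted over 45 pairs was below 0.05. Slco1a4, Tek and Kdr are the darkest block, and Mfsd2a has 6 negative values of 9.

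Mfsd2a had the lowest correlations of the set. Its median correlation with the 9 other genes was -0.204, whereas the other medians ran from 0.247 for Cldn5 to 0.617 for Tek. It was negatively correlated with Kdr (r = -0.672, rho = -0.732, adjusted permutation p = 0.0718 and 0.0537) and with Slco1a4 (r = -0.644, rho = -0.646, adjusted permutation p = 0.085 and 0.11), and neither passed over the 45 pairs. Without the 2 libraries farthest from the median of Kdr, the first of these was -0.542, and without those farthest from the median of Slco1a4 the second was -0.405. In treated replicate 2, Mfsd2a was the highest of its group while Kdr, Slco1a4 and Tek were the lowest. In APP-PS1 PBS replicate 5 and WT replicate 5, Mfsd2a was the lowest of its group while Slco1a4 and Tek were the highest.

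Genes whose variation was most like that of Mfsd2a were then looked up among 15682 genes, a step added after its values had been seen. Tmem143 (r = 0.978), Kndc1 (0.937), Kank3 (0.931), Kirrel2 (0.913) and Plin4 (0.907) had the highest Pearson correlations over the 15 libraries. They were picked for high values, so these are descriptions. Plin4, a lipid droplet protein gene at rank 5, is known to respond to glucocorticoids, as are Fkbp5, at rank 10 (r = 0.895), Tsc22d3, at rank 52 (0.812), and Sgk1, at rank 3840 (0.317). These 4 genes were picked after values were seen and come from no fixed list. Plin4 had 11.9, 29.9, 11.4, 5.3 and 8.27 CPM in treated mice, 27.7, 31.3, 31.1, 66 and 14.1 CPM in APP-PS1 PBS mice and 69.1, 25.6, 31.9, 25.2 and 16.9 CPM in WT mice. Its highest library was treated replicate 2, APP-PS1 PBS replicate 4 and WT replicate 1 in the 3 groups, the same libraries that were highest for Mfsd2a. Plin4 was picked for its correlation with Mfsd2a over these libraries, so this match adds nothing to that correlation. The log2 fold changes of treated over APP-PS1 PBS mice were -1.47 for Plin4 (SE 0.40), -0.29 for Fkbp5 (SE 0.13), -0.64 for Tsc22d3 (SE 0.17) and -0.72 for Sgk1 (SE 0.18). None passed in edgeR, with an adjusted p of 0.359 for Fkbp5 and of 0.223 for each of the others. Sgk1, the least like Mfsd2a of the 4, had the smallest unadjusted p (0.000921).

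**Figure D5:**
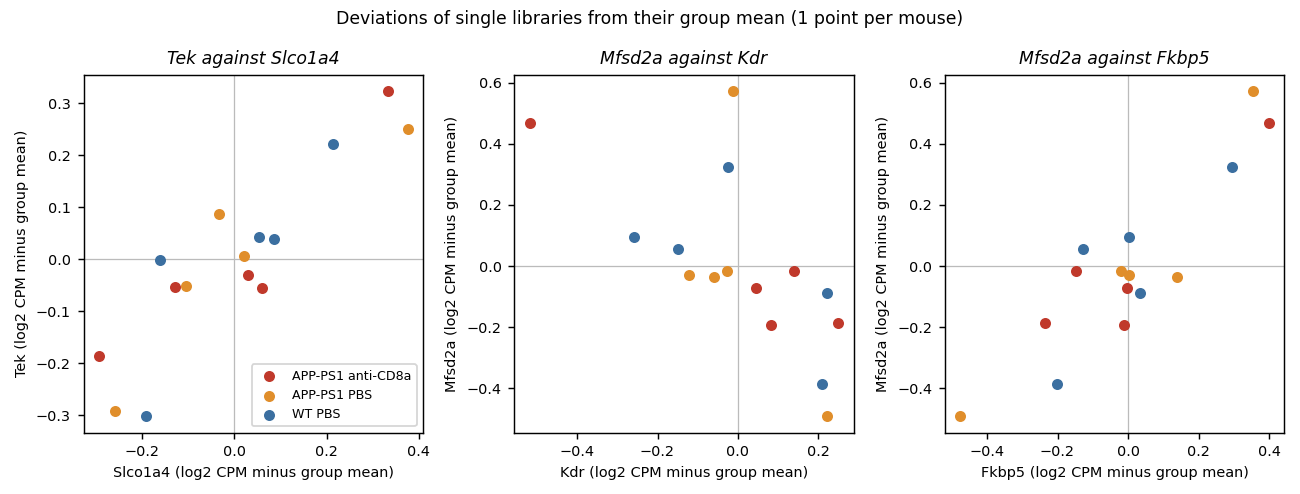
Deviations of single libraries from their group mean (log2 CPM) for Tek against Slco1a4, Mfsd2a against Kdr and Mfsd2a against Fkbp5, with 1 point per mouse and colours for groups. Tek rises with Slco1a4 (r = 0.897), Mfsd2a falls with Kdr (r = -0.672) and rises with Fkbp5 (r = 0.895). Fkbp5 was picked after values were seen, and its Spearman's rho with Mfsd2a was 0.682.

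The mean of the 10 standardised deviations gave each library a profile value, which was lowest in APP-PS1 PBS replicate 1 (-1.264) and highest in treated replicate 4 (0.958). The genes of 15673 compared that were most like this profile were Tmem35b (r = 0.924), Prom1 (0.920), AW047730 (0.888), Gas1 (0.880), Cmc1 (0.880), Fam177a (0.866), Txlnb (0.843), 2410004B18Rik (0.842), Svip (0.840) and Foxc1 (0.839), again picked for their values. None of them belongs to a list used here. Foxc1 is a transcription factor of mural cells and meningeal fibroblasts. By list, the median r with the profile was 0.601 for 14 mural markers, 0.599 for 9 fibroblast markers, 0.566 for 7 genes of caveolae and 0.466 for 8 genes of endothelial activation, beside 0.018 for all genes. Markers of oligodendrocytes (0.464, 5 genes) and red cells (0.417, 5 genes) had higher medians than the 25 genes of endothelial identity (0.363). Endothelial Wnt signalling (0.239), barrier transporters (0.146), junction genes (0.069) and VEGF and angiopoietin signalling (0.062) had lower ones. The medians were 0.237 for astrocyte markers, 0.18 for microglia markers, 0.039 for choroid plexus markers and -0.403 for 7 neuron markers. These lists have few genes, their levels share libraries and tissue content, and the part of other cell types in the shared variation was not tested.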

How the data were processed

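The deposited table holds raw read counts per gene, made by the authors with FastQC, Bowtie2 2.2.2 and HTSeq 0.11.2, with DESeq2 also named, per the submitters' processing notes, on build GRCm38. The library kit keeps strand, per the labels' protocols, but the sources used here do not give the strand setting used in counting, so reads of overlapping or antisense genes may be assigned to either. Bowtie2 does not align across introns, so reads over exon junctions can be lost. Rows that name no gene did not enter library sizes or tests. They hold reads outside features (20 to 25.9%), ambiguous reads (1.64 to 1.79%) and reads that align more than once (2.7 to 2.92%). All table columns matched a labelled sample.

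CPM values were computed with TMM scaling in edgeR 4.0.16 (R 4.3.3). Two-sided quasi-likelihood tests of edgeR (glmQLFit, then glmQLFTest) covered the 18974 genes that filterByExpr kept. A common model of all 15 libraries had terms for group and the labelled sex, leaving 11 residual degrees of freedom, and p values were adjusted over all genes tested by Benjamini and Hochberg's method at 0.05. Standard errors derive from the F statistic and 95% intervals from the t distribution. The fit was also run on simulated counts with known changes, but its recovery of them is not given here and sets no detection limit. Correlations used log2 CPM (prior count 2) minus group means. Gene symbols matched 45143 identifiers, and exon lengths and places come from GENCODE M21 on the same build, whose release may differ from the authors'. The floor of 3 counts covers counting error only, and depths are given with the results.

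The 10 genes and the lists were chosen with earlier results of these data known. Named genes were the 10 genes in all comparisons, up to 4 genes of smallest p from each list described, the 10 genes most like the mean profile with a mean of at least 1 CPM, the near copies Ly6c2 and Abcb1b, and Ttr, Xist, App, Prnp and Cd8a. Genes like Mfsd2a, Slco1a4 or Tek were added after values were seen, as were Plin4, Fkbp5, Tsc22d3 and Sgk1. Alternatives were DESeq2 1.42.0, other size factors, no filter, no sex covariate, sex taken from Xist and the Y-linked genes, a choroid plexus covariate, the 2 groups alone, exact permutation, and leaving out each library or the 5 libraries above 1000 CPM of Ttr.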

Additional observations from a re-analysis of the deposited data

Results flagged for a closer look

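Among the 30 sets of 5 libraries formed by the 10 genes and 3 groups, 4 held a library whose gap to its nearest neighbour, divided by the range of the group, exceeded Dixon's critical value of 0.71, and chance alone gives about 1 in 20. Cldn5 in treated replicate 4 stood at 27.3 CPM, above the other treated libraries (gap over range 0.775). Tek in the same library stood at 23.6 CPM, also above the rest of its group (0.733). Mfsd2a in treated replicate 2 stood at 22.1 CPM, above the other treated libraries (0.778). Abcb1a in APP-PS1 PBS replicate 1 stood at 37.3 CPM, below the rest of its group (0.828), and this library's sex label goes against its Xist level.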

How the results depend on the processing

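None of the 30 fold changes of the 10 genes passed under any of their 24 alternatives, and 22 of them kept their sign in all 24. The other 8 changed sign under at least 1 alternative, and the cause was not tested. Between APP-PS1 PBS and WT mice, leaving out the 5 Ttr-rich libraries (over 1000 CPM) gave log2 fold changes of -0.1514 for Slco1a4 and -0.0679 for Tek. Kdr was 0.0184 with the 2 groups alone, 0.0183 with no sex covariate and 0.0280 as an exact permutation difference. Mfsd2a was -0.0931 with no sex covariate, -0.0299 with sex read from genes, -0.0171 with the choroid plexus covariate and -0.1215 as a permutation difference. Leaving out single libraries gave -0.1056 to 0.1442 for Slco1a4, -0.1425 to 0.0307 for Kdr, -0.0222 to 0.1739 for Tek and -0.1667 to 0.2337 for Mfsd2a. Between treated and APP-PS1 PBS mice, Slco1a4 was -0.0037 with sex read from genes, and Tek was 0.0026 with the choroid plexus covariate and 0.1012 without the Ttr-rich libraries. Single libraries left out gave -0.1039 to 0.0243 for Pecam1, -0.0448 to 0.1718 for Slco1a4 and -0.0952 to 0.0761 for Tek. Between treated and WT mice, Abcb1a was -0.0119 without the Ttr-rich libraries. The number of all genes called between APP-PS1 PBS and WT mice, 195, was 360 in DESeq2, 115 with no sex covariate and 98 without the Ttr-rich libraries. Between treated and APP-PS1 PBS mice, 0 became 134 in DESeq2, 13 with no filter on low counts, 1 with the 2 groups alone and 0 to 3 when a library was left out. Between treated and WT mice, 369 became 221 with the 2 groups alone, 199 without the Ttr-rich libraries and 140 to 441 when a library was left out, the lowest without treated replicate 3. The number of co-varying pairs, 4, was 2 without the Ttr-rich libraries and 2 to 7 when a library was left out, a range added after seeing the data. The precision rests on 5 mice a group, and the stated 95% intervals describe single fitted values and are no detection limits. No paired analysis was possible because the labels number animals and no number is shared between groups.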
